A study of Mus musculus with 10 samples.

Results

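The secondary and tertiary granule genes of neutrophils were examined in the spleens of DUSP6 KO and WT mice with arthritis. The members were 9 genes chosen by symbol, Ltf, Lcn2, Camp, Ngp, Cd177, Chil3, Mmp8, Mmp9 and Itgb2l, of 54532 genes in the expression table. All 9 were measured, and all 9 passed the filter on low values, which asked for a mean of at least 0.1 FPKM (fragments scaled to transcript length and to library size) over the 10 spleens.

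Neutrophils build their granules in sequence as they mature. Primary granules, with myeloperoxidase and elastase, are filled at the promyelocyte stage, secondary or specific granules at the myelocyte and metamyelocyte stages, and tertiary or gelatinase granules last. The mRNA of a granule protein is therefore made mainly while that granule is being filled, and in the mouse the red pulp of the spleen is a site of such granulocyte formation during inflammation. The transcription factor C/EBP epsilon, the product of Cebpe, is required for the secondary granule program.

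The study compared spleen RNA of DUSP6 KO mice, which carry the Dusp6tm1Jmol allele, with that of C57BL/6J WT mice, and the groups held 5 spleens each. DUSP6 is a phosphatase that acts on ERK. All 10 mice had KRN serum-induced arthritis (KSIA), for which 100 µL of serum from 60-day-old arthritic KRN x NOD F1 mice was given intraperitoneally on days 0 and 2, and spleens were taken on day 9. Mice were 8 to 12 weeks old. The sample labels call the genotype a knockdown, whereas the methods name a knockout. There was no spleen without arthritis. The mutant and WT strains were both bought, and the sources do not say that the mice were littermates. Each library was made from 1 mouse. Spleens are named here by their genotype and mouse number, and the number 73 belongs to a different mouse in each group.

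Dusp6 ranged from 0.308 to 0.624 FPKM in mutant and from 16.6 to 24.0 FPKM in WT spleens, so it matched the labels in all 10. Xist was at no more than 0.0206 FPKM and the Y-linked Ddx3y at 14.4 FPKM or more in every spleen, as in male mice. Between 14990474 and 19822673 reads were assigned to genes in a DUSP6 KO library, and between 15611652 and 18422147 in a WT library. The 9 granule genes together took 0.0399% to 0.106% of the reads in the mutant libraries and 0.0557% to 0.307% in WT. Markers of B cells, T cells and red pulp macrophages were present in every spleen. Genes of the exocrine pancreas, an organ that lies beside the spleen, summed to 11223 FPKM in WT spleen 67, were also present in WT spleen 65, and were near 0 in the other 8. The counts, fold changes and correlations of the members are also given without these spleens. Because whole spleen was measured, fewer cells of a type and less RNA per cell cannot be told apart.

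Promoter sequences are shown for 5 of the genes whose mRNA levels followed each other across spleens, since a C/EBP motif was searched in them. RefSeq promoters (GRCm38.p6, 250 bases before to 50 bases after the RefSeq start site, given on the strand of the gene) were matched for 8 of the 9 genes. The capitals mark matches of the letters TTGCNNAA, a C/EBP consensus, searched on both strands. A match on the other strand, as in Ltf and at the later place in Ngp, reads TTNNGCAA here.
Ngp, chr9:110419558-110419857: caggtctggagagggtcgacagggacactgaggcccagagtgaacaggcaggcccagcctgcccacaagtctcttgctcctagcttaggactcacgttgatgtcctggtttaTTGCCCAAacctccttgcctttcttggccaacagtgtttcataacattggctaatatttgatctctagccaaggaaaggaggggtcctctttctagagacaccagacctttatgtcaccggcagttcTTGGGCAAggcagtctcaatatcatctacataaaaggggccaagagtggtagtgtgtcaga
Ltf, chr9:111019042-111019341: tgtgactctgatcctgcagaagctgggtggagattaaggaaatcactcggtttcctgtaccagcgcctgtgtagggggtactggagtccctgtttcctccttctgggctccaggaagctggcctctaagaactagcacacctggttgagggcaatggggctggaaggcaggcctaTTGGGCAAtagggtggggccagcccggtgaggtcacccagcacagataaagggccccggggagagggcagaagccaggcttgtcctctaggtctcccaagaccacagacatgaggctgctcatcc
Lcn2, chr2:32387690-32387989: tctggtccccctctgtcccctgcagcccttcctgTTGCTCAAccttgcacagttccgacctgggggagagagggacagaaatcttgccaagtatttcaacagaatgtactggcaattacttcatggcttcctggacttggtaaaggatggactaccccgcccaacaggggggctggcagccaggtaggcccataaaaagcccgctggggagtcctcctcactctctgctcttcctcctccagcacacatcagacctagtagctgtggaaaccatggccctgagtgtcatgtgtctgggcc
Mmp8, chr9:7558179-7558478: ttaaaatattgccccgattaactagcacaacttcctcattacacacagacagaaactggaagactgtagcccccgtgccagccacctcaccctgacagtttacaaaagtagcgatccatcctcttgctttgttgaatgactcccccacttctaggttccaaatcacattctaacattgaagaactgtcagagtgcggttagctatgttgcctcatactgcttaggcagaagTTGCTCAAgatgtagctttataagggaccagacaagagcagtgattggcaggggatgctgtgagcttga
Camp, chr9:109849407-109849706: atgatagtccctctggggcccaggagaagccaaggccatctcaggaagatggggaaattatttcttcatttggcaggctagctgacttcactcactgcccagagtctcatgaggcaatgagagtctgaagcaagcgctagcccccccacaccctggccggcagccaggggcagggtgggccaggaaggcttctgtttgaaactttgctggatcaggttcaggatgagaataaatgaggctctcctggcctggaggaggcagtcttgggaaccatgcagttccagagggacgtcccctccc
The first base of the match lay at position -75 from the start site in Ltf, -216 in Lcn2 and -19 in Mmp8, and Ngp held a pair of matches at -138 and -11. Camp is shown as a gene with no match. The letters were found in 4 of the 8 member promoters and in 10.8% of the 32851 mouse promoters of the same length. The PU.1 core GAGGAA was in 5 of 8 against 28.3% of all promoters, and the RUNX core TGTGGTT in 0 of 8 against 5.27%. These are matches of letters and not measured binding sites. For Lcn2 the RefSeq start site lay 513 bases from the gene end given in the expression table.

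The question was whether spleens of DUSP6 KO mice differed from WT in granule gene mRNA on day 9 of KSIA. Every one of the 9 genes had a lower mean level in DUSP6 KO than in WT, and the ratio of the WT mean to the DUSP6 KO mean ran from 1.203 for Mmp9 to 2.53 for Lcn2. On the log2(FPKM + 0.1) scale the median of the 9 log2 fold changes was −1.09, and the median over all 21296 genes tested was −0.0046. All 9 log2 fold changes were negative, as were those of 10851 of the 21296 genes. None of the 9 passed limma's test at an adjusted p of 0.05 over all genes tested, a threshold passed by 0.0704% of the genes. At an unadjusted limma p under 0.05, 7 of the 9 were lower in DUSP6 KO, against 3.03% of all genes. With limma voom on recovered reads the counts were also 0 and 7. By the exact permutation test only 3 of the 9, Lcn2, Cd177 and Chil3, had a p under 0.05. The share of all genes by that test was not computed. The count of 7 changed with single spleens left out. It was 2 without DUSP6 KO 01, 3 without DUSP6 KO 03, 3 without WT 77, 4 without DUSP6 KO 21, WT 73 or WT 83, 6 without DUSP6 KO 26 or WT 65, and 8 without DUSP6 KO 73 or WT 67. The median fold change moved less. On the log2 scale it was −1.08 without DUSP6 KO 03 and −0.97 without DUSP6 KO 01, and over the 10 spleens left out in turn it ran from −1.35 without DUSP6 KO 73 to −0.73 without WT 77. The count of members at an unadjusted p under 0.05 was 8 without WT 65 and WT 67 together, when Itgb2l was counted too. The 9 genes come from the same 10 libraries and were correlated across them, so they are not separate observations. None of the 9 had groups that did not overlap, which 0.563% of all genes had in the direction of lower in DUSP6 KO.

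**Figure D1:**
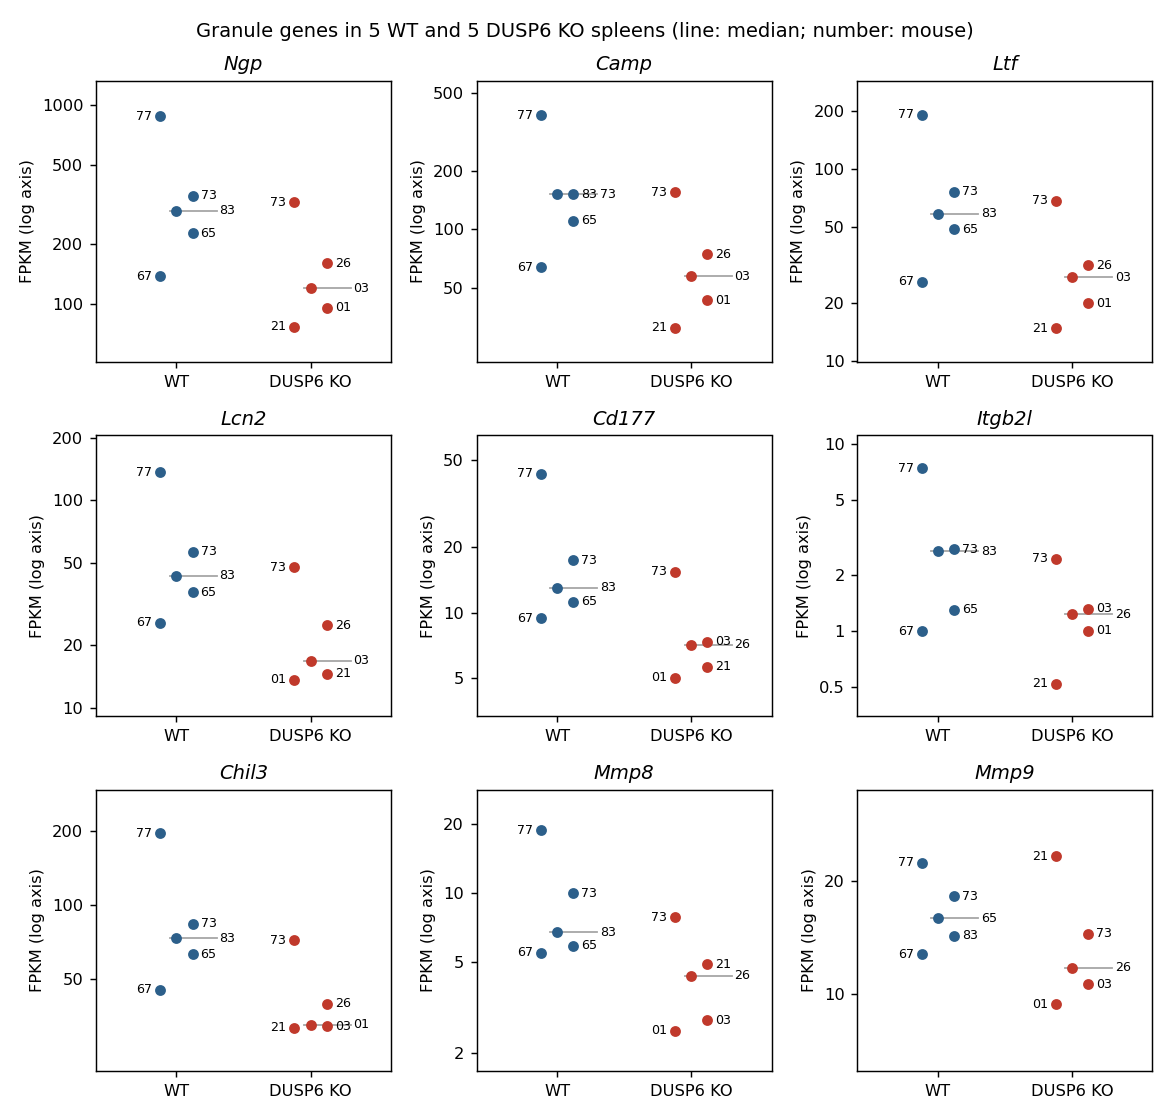
FPKM on a log axis (vertical) of each of the 9 granule genes in 5 WT and 5 DUSP6 KO spleens, where each point is 1 mouse with its number and the grey line is the group median. WT 77 is the highest spleen for 8 genes, DUSP6 KO 73 lies among the WT spleens, and DUSP6 KO 21 is the highest spleen only for Mmp9.

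Ngp and Camp were the most abundant members. Ngp, neutrophilic granule protein, is a cathelin-like protein of the specific granule (ENSMUSG00000032484, GRCm38 chr9:110419747-110423012). It was at 76.4, 95.6, 119, 159 and 322 FPKM in DUSP6 KO spleens 21, 01, 03, 26 and 73. In WT spleens 67, 65, 83, 73 and 77 it was at 138, 225, 293, 349 and 875 FPKM. The groups overlapped, because DUSP6 KO 73 was above 3 of the WT spleens and WT 67 was below DUSP6 KO 26. DUSP6 KO spleens averaged 155 ± 98.8 FPKM, and WT spleens averaged 376 ± 290 FPKM (SD, n = 5 per group). The log2 fold change was −1.19 with a standard error of 0.50 (limma p = 0.036, adjusted p = 0.83, exact permutation p = 0.071).

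Camp encodes the cathelicidin antimicrobial peptide (ENSMUSG00000038357, chr9:109847379-109849617). Its FPKM was 31.5, 43.4, 57.7, 74.5 and 155 in DUSP6 KO 21, 01, 03, 26 and 73, and 64.1, 111, 151, 152 and 383 in WT 67, 65, 73, 83 and 77. DUSP6 KO 73 was the second highest of the 10 spleens for this gene, just above WT 83. The log2 fold change was −1.22 with a standard error of 0.50 (limma p = 0.034, adjusted p = 0.82, exact permutation p = 0.079). Ngp exceeded Camp in all 10 spleens, by 2.07 to 2.43 times in DUSP6 KO and 1.93 to 2.31 times in WT.

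Ltf and Lcn2 encode the proteins that withhold iron from bacteria. Ltf, lactoferrin, binds iron itself (ENSMUSG00000032496, chr9:111019271-111042767). It was at 14.8, 19.96, 27.3, 31.6 and 68.2 FPKM in DUSP6 KO 21, 01, 03, 26 and 73, and at 25.9, 48.5, 58.3, 76.1 and 192 FPKM in WT 67, 65, 83, 73 and 77. Its log2 fold change of −1.18 had a standard error of 0.52 (limma p = 0.045, adjusted p = 0.87, exact permutation p = 0.095), and it was −0.79 without WT 77. Lcn2, lipocalin 2, binds bacterial siderophores (ENSMUSG00000026822, chr2:32384633-32388252). It was at 13.7, 14.6, 16.9, 25.0 and 47.6 FPKM in DUSP6 KO 01, 21, 03, 26 and 73, and at 25.8, 36.1, 43.4, 56.5 and 136 FPKM in WT 67, 65, 83, 73 and 77. For Lcn2, 4 of 5 DUSP6 KO spleens were below the lowest WT spleen, and only DUSP6 KO 73 was not. Lcn2 had the most negative log2 fold change of the 9, −1.25 with a standard error of 0.46 (limma p = 0.020, adjusted p = 0.77, exact permutation p = 0.048).

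Cd177 and Itgb2l encode cell surface proteins. Cd177 is a glycoprotein that is stored in specific granules, reaches the neutrophil surface and binds Pecam1 on endothelium (ENSMUSG00000052212, chr7:24743983-24760311). It was at 5.02, 5.67, 7.11, 7.37 and 15.4 FPKM in DUSP6 KO 01, 21, 26, 03 and 73, and at 9.44, 11.2, 13.01, 17.4 and 43.2 FPKM in WT 67, 65, 83, 73 and 77. All DUSP6 KO spleens but 73 were below all WT spleens. The log2 fold change of Cd177 was −1.09 with a standard error of 0.42 (limma p = 0.025, adjusted p = 0.79, exact permutation p = 0.048). Itgb2l, an integrin beta 2-like protein of myeloid cells, was the least abundant member (ENSMUSG00000000157, chr16:96422288-96443619). Its FPKM was 0.523, 1.003, 1.23, 1.31 and 2.43 in DUSP6 KO 21, 01, 26, 03 and 73, and 0.993, 1.30, 2.67, 2.74 and 7.40 in WT 67, 65, 83, 73 and 77. It rested on 44 to 532 reads a library, the fewest of the 9. Its groups overlapped in the lower range, and the log2 fold change was −0.96 with a standard error of 0.52 (limma p = 0.091, adjusted p = 0.94, exact permutation p = 0.15). Without WT 77 it was −0.56, and with single spleens left out it lay between −1.25 and −0.56. Itgb2l lies within Igsf5, a gene of the other strand, and the strandedness of the counting was not given in the sources used here. Whether exons of the pair overlap was not checked, so how reads of the pair were divided is not known.

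Chil3, Mmp8 and Mmp9 encode the secreted lectin and the matrix proteases among the members. Chil3, also called Ym1, is a chitinase-like lectin that neutrophil precursors and activated macrophages make (ENSMUSG00000040809, chr3:106147554-106167564). It was at 31.6, 32.0, 32.6, 39.5 and 71.9 FPKM in DUSP6 KO 21, 03, 01, 26 and 73, and at 45.2, 63.0, 72.996, 83.9 and 195 FPKM in WT 67, 65, 83, 73 and 77. The DUSP6 KO spleens other than 73 were within 31.6 to 39.5 FPKM and all below WT. Chil3 had the lowest p of the 9. Its log2 fold change was −1.04 (standard error 0.37, limma p = 0.017, adjusted p = 0.75, exact permutation p = 0.024).

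Mmp8, the neutrophil collagenase, is a specific granule protease (ENSMUSG00000005800, chr9:7558456-7568485). Its FPKM was 2.51, 2.78, 4.35, 4.90 and 7.85 in DUSP6 KO 01, 03, 26, 21 and 73, and 5.51, 5.91, 6.76, 9.99 and 18.9 in WT 67, 65, 83, 73 and 77. The log2 fold change of Mmp8 was −1.01 with a standard error of 0.38 (limma p = 0.024, adjusted p = 0.79, exact permutation p = 0.056). Here DUSP6 KO 21 was not among the lowest 3 spleens, unlike for Ngp, Camp, Ltf, Lcn2, Cd177, Itgb2l and Chil3.

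Mmp9, gelatinase B, is the marker protease of the tertiary granule (ENSMUSG00000017737, chr2:164940780-164955850). It was at 9.39, 10.6, 11.7, 14.4 and 23.2 FPKM in DUSP6 KO 01, 03, 26, 73 and 21. In WT 67, 83, 65, 73 and 77 it was at 12.8, 14.3, 15.9, 18.2 and 22.3 FPKM. DUSP6 KO 21 was the highest of all 10 spleens for Mmp9, although it ranked between 7 and 10 for the other 8 members. DUSP6 KO spleens averaged 13.9 ± 5.53 FPKM, and WT spleens averaged 16.7 ± 3.73 FPKM (SD, n = 5 per group). The log2 fold change was −0.31, with a 95% interval of −0.84 to 0.21 (limma p = 0.21, adjusted p = 0.97, exact permutation p = 0.26). With single spleens left out it lay between −0.52 and −0.19. It was −0.52 without DUSP6 KO 21 (limma adjusted p = 0.59), when Mmp9 was among the 4 members at an unadjusted p under 0.05. It was −0.19 without DUSP6 KO 01 and −0.20 without WT 77, and there it was not among them.

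**Figure D2:**
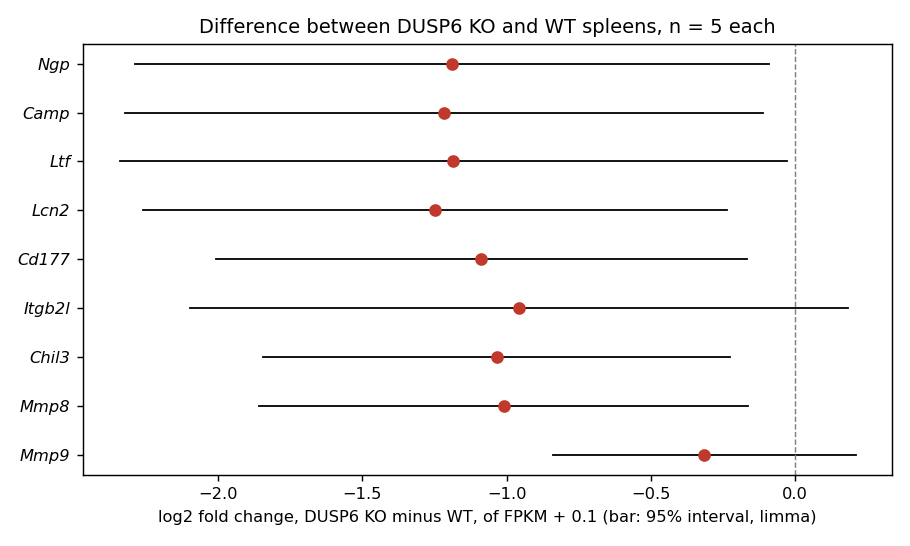
Log2 fold change of DUSP6 KO minus WT (horizontal, log2 of FPKM + 0.1) for the 9 granule genes, with points for the limma estimate and bars for its 95% interval, n = 5 per group. The intervals of Itgb2l and Mmp9 include 0, those of the other 7 lie below 0 before adjustment, and the interval of Mmp9 is −0.84 to 0.21.

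The order of the 10 spleens was nearly the same for 8 of the 9 genes. WT 77 was the highest spleen for all members but Mmp9, for which it was the next after DUSP6 KO 21. WT 73 ranked between 2 and 4 of 10 and WT 83 between 3 and 6. WT 65 ranked between 4 and 6. DUSP6 KO 73 ranked between 2 and 5, and it was above every other DUSP6 KO spleen for all members but Mmp9. WT 67 ranked between 6 and 9 and was the lowest WT spleen for all 9 members. DUSP6 KO 01 ranked between 8 and 10. DUSP6 KO 26 and 03 filled the ranks from 5 to 9. The range over the 10 spleens was wide. The highest spleen exceeded the lowest by 14.1 times for Itgb2l, 12.9 times for Ltf, 11.5 times for Ngp and 6.18 times for Chil3, but by 2.47 times for Mmp9. Within WT alone the coefficient of variation was 85.2% for Itgb2l and 22.3% for Mmp9.

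**Figure D3:**
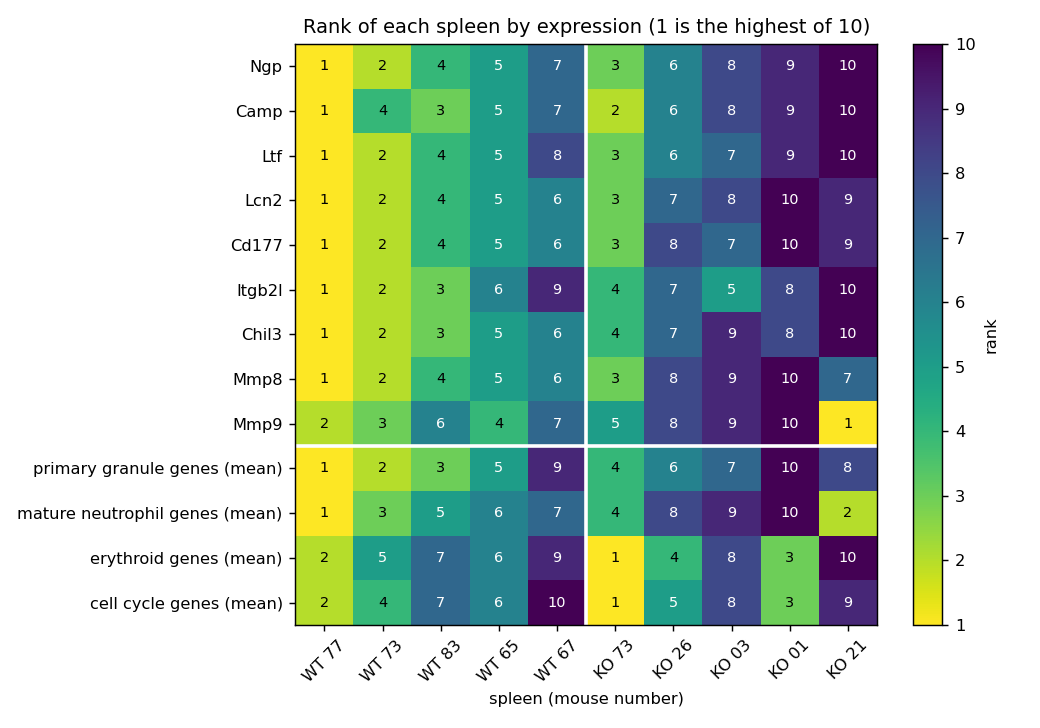
Rank of each spleen (columns, 5 WT at left and 5 DUSP6 KO at right) for each of the 9 granule genes and for the mean log2 value of 4 other gene lists (rows), where 1 is the highest of 10. WT 77 ranks 1 for 8 members, and DUSP6 KO 21 ranks 1 for Mmp9 and 2 for the mature neutrophil genes but from 7 to 10 for the other 8 members.

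The members followed Ngp across the 10 spleens. On the log2 scale Pearson's r with Ngp was 0.997 for Ltf (Spearman's rho 0.988), 0.996 for Camp (0.964), 0.990 for Lcn2 (0.976), 0.980 for Chil3 (0.964), 0.975 for Cd177 (0.952), 0.966 for Itgb2l (0.891) and 0.898 for Mmp8 (0.903). For these 7 genes the adjusted permutation p was between 1.6e-05 and 0.00055 for r and between 0.0001 and 0.0014 for rho, over 8 relations and 100000 resamples. The value of 1.6e-05 comes from the smallest p that the resamples could give, 1e-05. The members were chosen with earlier results of these data known, so these p-values are descriptions and not a test of a shared order. The resamples also mixed the genotypes, so the group difference enters r. After the group means were removed, r was 0.838 for Mmp8, 0.960 to 0.996 for the others of the 7 and 0.297 for Mmp9. Without the spleens farthest from the median of Ngp, WT 77 and DUSP6 KO 21, r of these 7 genes stayed between 0.903 and 0.994. Without WT 77 alone, r was 0.801 for Mmp8 and 0.9315 to 0.9946 for the others of the 7. Within the DUSP6 KO spleens alone, r was 0.675 for Mmp8 and 0.933 to 0.997 for the others. Mmp9 had an r with Ngp of 0.450 and a rho of 0.406 (adjusted permutation p = 0.19 and 0.25). Its r was 0.905 without WT 77 and DUSP6 KO 21, 0.945 without DUSP6 KO 21 alone and 0.171 without WT 77 alone, so the low value rested on DUSP6 KO 21. Without WT 65 and WT 67, r was 0.432 for Mmp9 and 0.908 to 0.998 for the other 7. The 28 pairs of members without Mmp9 had r from 0.804 to 0.997 with a median of 0.968, and the 8 pairs with Mmp9 had r from 0.322 to 0.754 with a median of 0.495. All members of a spleen share its library and its depth.

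**Figure D4:**
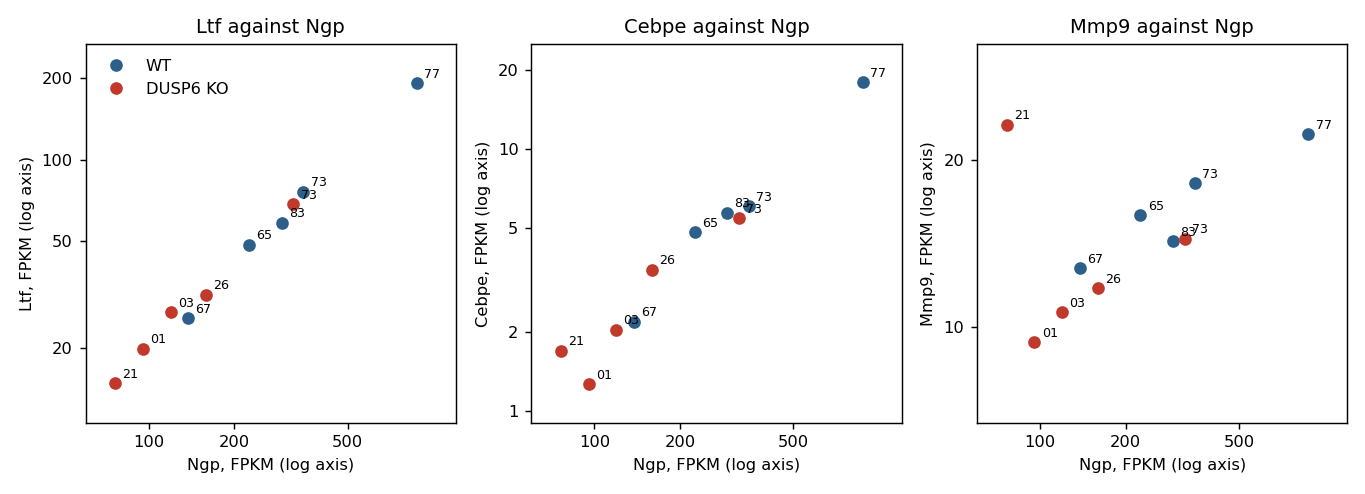
FPKM of Ltf, Cebpe and Mmp9 (vertical, log axes) against FPKM of Ngp (horizontal, log axis), where each point is 1 spleen with its mouse number, blue for WT and red for DUSP6 KO. Ltf follows Ngp in all 10 spleens, with r = 0.997, whereas DUSP6 KO 21 is at 23.2 FPKM of Mmp9 and the lowest Ngp level, 76.4 FPKM.

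FPKM is per length, so levels were also set against each other within a spleen. By WT mean the order was Ngp, Camp, Chil3, Ltf, Lcn2, Cd177, Mmp9, Mmp8 and Itgb2l. Most neighbours in this order kept their places in all 10 spleens. Camp exceeded Chil3 in 9 of 10, the exception being DUSP6 KO 21, and Cd177 and Mmp9 did not hold an order, since Cd177 exceeded Mmp9 in only 2 of 10 spleens, DUSP6 KO 73 and WT 77. The ratio of Ngp to Ltf was 4.38 to 5.15 in DUSP6 KO and 4.57 to 5.32 in WT, ranges that nearly coincide. The ratio of Ngp to Mmp9 was 3.29 to 22.3 in DUSP6 KO, with a median of 11.2, and 10.8 to 39.3 in WT, with a median of 19.2. The lowest of these ratios was in DUSP6 KO 21.

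Genes of the other neutrophil stages were set beside the members. Of all 21296 genes tested, 10851 had a negative log2 fold change, and 3.03% were lower at an unadjusted limma p under 0.05. Of 8 primary granule genes, all 8 had a negative log2 fold change and 2 had an unadjusted limma p under 0.05, with a list median of −0.99. The lowest p values were those of Ms4a3, a protein of granulocyte precursors (log2 fold change −1.06, limma adjusted p = 0.79), and Elane, neutrophil elastase (−1.14, limma adjusted p = 0.82). Elane spanned 19.0 to 42.1 FPKM among DUSP6 KO spleens and 21.2 to 173 FPKM among WT spleens, and WT 77 was again the highest. Within a spleen, the mean log2 level of the members exceeded that of the primary granule genes by 0.92 to 1.28 in DUSP6 KO and by 1.13 to 1.48 in WT.

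Of 14 genes of mature neutrophils, 11 had a negative and 3 had a positive log2 fold change of DUSP6 KO against WT. Over all 21296 genes, 10851 had a negative one. The median log2 fold change of the 14 was −0.31. Of the 14, 2 were lower at an unadjusted limma p under 0.05, against 3.03% of all genes. These were S100a9 and S100a8, which encode the subunits of calprotectin (log2 fold changes −1.14 and −1.13, limma adjusted p = 0.75 and 0.79). The difference of the members' mean log2 level from that of the mature list within a spleen was −0.56 to 1.27 in DUSP6 KO, with a median of 0.57, and 0.45 to 2.12 in WT, with a median of 1.14. DUSP6 KO 21 was the only spleen where it was negative. The genes of the mature list did not share an order in that spleen. DUSP6 KO 21 was the highest of the 10 spleens for 6 of the 14, Csf3r, Cxcr2, Il1b, Clec4d, Clec4e and Stfa2l1, and ranked between 2 and 4 for Fpr1, Trem1, Fpr2 and Retnlg. It ranked 6 for Ly6g, 7 for S100a8 and S100a9 and 9 for Mxd1. Csf3r, the G-CSF receptor, was at 48.5 FPKM there against 11.7 to 24.6 in the other 9, whereas S100a9 was at 449.5 FPKM within a range of 226 to 1946 FPKM. Apart from S100a8, S100a9 and Ly6g, the genes of this list were singled out with their values known. The part of mature neutrophils in the Mmp9 level of this spleen was not tested.

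Among 19 further genes of specific and gelatinase granules, 18 passed the filter and Ptx3 did not. Of the 18, 15 had a negative log2 fold change, against 10851 of all 21296 genes. The median of the 18 was −0.23, and 5 of them were lower at an unadjusted limma p under 0.05. That is a share of 27.8%, against 3.03% of all genes. The lowest p values were those of Wfdc21, a secreted WAP domain protein, and Hp, haptoglobin, at −1.46 and −0.93 on the log2 scale and a limma adjusted p of 0.75 for both. Wfdc21 spanned 3.40 to 23.9 FPKM among DUSP6 KO spleens and 16.0 to 70.7 FPKM among WT spleens, and its r with the members' mean was 0.947. The subunits of the NADPH oxidase in the granule membrane, which other phagocytes also carry, had log2 fold changes of −0.16 for Cybb and −0.29 for Cyba, both named after their values were seen.

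**Figure D5:**
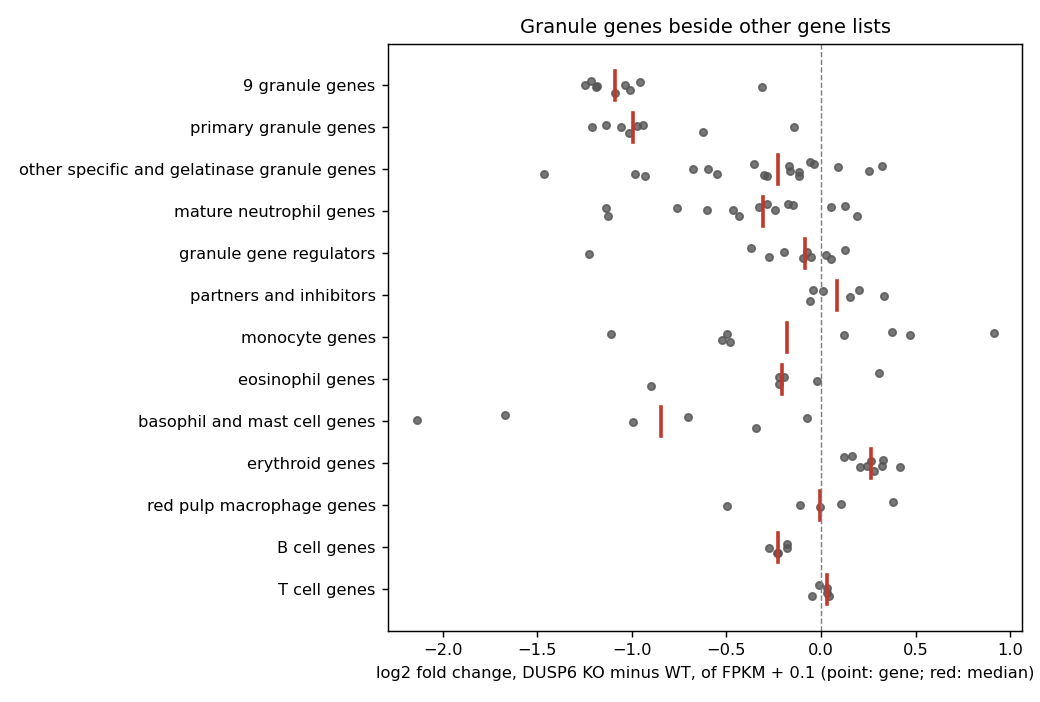
Log2 fold change of DUSP6 KO minus WT (horizontal, log2 of FPKM + 0.1) of every tested gene in 13 lists (rows), where points are genes and red lines are list medians. The 9 granule genes have a median of −1.09 and the primary granule genes of −0.99, and the mature neutrophil genes spread from −1.14 to 0.19.

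Of the regulators of granule genes, 10 of 13 passed the filter, and Csf3, Il6 and Il17a did not. Cebpe was the only regulator at an unadjusted limma p under 0.05, and it differed by −1.22 on the log2 scale (limma adjusted p = 0.84). Its FPKM was 1.26, 1.70, 2.04, 3.45 and 5.44 in DUSP6 KO 01, 21, 03, 26 and 73, and 2.19, 4.81, 5.71, 6.03 and 17.9 in WT 67, 65, 83, 73 and 77. The order of the spleens for Cebpe was close to that of the members. The other C/EBP genes had log2 fold changes of 0.05 for Cebpa, 0.13 for Cebpb and −0.28 for Cebpd. Gfi1, a repressor in granulocyte precursors, was at −0.37, Spi1, which encodes PU.1, at −0.05, Runx1 at −0.07, Cux1 at 0.03, Stat3 at −0.19 and Nfkbiz at −0.10.

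None of the 6 partners and inhibitors of the granule proteins had an unadjusted limma p under 0.05, and the lowest adjusted p was 0.94. The log2 fold changes were 0.33 for Slc22a17, a lipocalin 2 receptor, 0.01 for Lrp1, which binds lactoferrin and Mmp9, and −0.04 for Pecam1. Timp1, Timp2 and Timp3, the inhibitors of matrix metalloproteinases, were at −0.06, 0.20 and 0.15.

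The genes most like the members in pattern were found by Pearson's r with the mean of the 9 standardised log2 values, over the 10 spleens and the 13413 genes that averaged 1 FPKM or more. They were Ms4a3 (r = 0.987), Prtn3 (0.984), Cebpe (0.980), Fcnb (0.976), Ctsg (0.975), Elane (0.973), S100a9 (0.969), S100a8 (0.969), Ly6g (0.950) and Cldn15 (0.950). After the group means were removed, r was still 0.979 for Ms4a3 and 0.970 for Cebpe. By the same measure the genes most like Mmp9 alone, a search added after the values were seen, began with 6430548M08Rik (0.941), Gja1 (0.938), Pygl (0.926) and C5ar1 (0.920). None of the 10 genes most like the members was among the 10 most like Mmp9. These values are descriptions of 10 spleens.

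Genes of other cell types were set beside the members, and none of the listed genes passed limma's adjusted threshold. By value alone, 10851 of the 21296 genes tested were lower and 10445 were higher in DUSP6 KO. At an unadjusted limma p under 0.05, 3.03% of all genes were lower and 2.62% were higher in DUSP6 KO. In the monocyte list 4 of 8 genes were lower and 3 were higher at this threshold. F13a1, a gene of classical monocytes, differed by −1.11 on the log2 scale (limma adjusted p = 0.34), and Ace, which marks nonclassical monocytes, by 0.91 (limma adjusted p = 0.45). All 6 basophil and mast cell genes were lower by value and 3 at an unadjusted p under 0.05, among them Prss34 with a log2 fold change of −2.13 and Ms4a2 with −0.996 (limma adjusted p = 0.19 and 0.30). Summed over this list, DUSP6 KO spleens had 10.7 to 14.1 FPKM and WT spleens 19.8 to 48.1 FPKM. The erythroid list was higher by value for all 9 genes with none at an unadjusted p under 0.05. For the means of both the erythroid and the cell cycle list DUSP6 KO 73 ranked 1 and WT 77 ranked 2, and DUSP6 KO 21 and WT 67 held ranks 9 and 10, whereas DUSP6 KO 01, among the lowest spleens for the members, ranked 3. DUSP6 KO 73 and WT 77 also ranked 1 and 2 for the eosinophil list, and 10 and 9 for the B cell and T cell lists. For the red pulp macrophage list DUSP6 KO 73 ranked 1 and WT 77 ranked 8. Of the 4 megakaryocyte genes that passed the filter, 2 were lower at an unadjusted p under 0.05, Pf4 and Itga2b, which differed by −0.52 and −0.49 on the log2 scale (limma adjusted p = 0.77 for both). In the eosinophil list 1 of 6 genes was higher at this threshold, Ear2 at 0.31, and in the red pulp macrophage list 1 of 5, Adgre1 at 0.38 (limma adjusted p = 0.75 and 0.59). The B cell, T cell, plasma cell and cell cycle lists had 0 genes at an unadjusted limma p under 0.05. Median log2 fold changes were −0.21 for eosinophil genes, −0.44 for megakaryocyte genes, −0.0035 for red pulp macrophage genes, −0.23 for B cell genes, 0.03 for T cell genes, −0.16 for plasma cell genes and 0.22 for cell cycle genes. The part of these cells in the granule gene levels was not tested. Without WT 65 and WT 67, the spleens with pancreas transcripts, the median log2 fold change of the 9 members was −1.62. It was −1.75 for Ltf, −1.73 for Camp and for Ngp, −1.72 for Lcn2, −1.62 for Itgb2l, −1.51 for Cd177, −1.43 for Chil3, −1.38 for Mmp8 and −0.45 for Mmp9. The values of the other lists were not computed without them.

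Of the members, 4 lie on chromosome 9 and 2 on chromosome 2, and 0 on chromosome 10, where Dusp6 lies. Camp, Ngp and Ltf lie within 1.195 Mb of each other, with 570 kb between Camp and Ngp and 596 kb between Ngp and Ltf, and Mmp8 is 102 Mb away. Between Camp and Ltf 27 other genes were tested. Their median log2 fold change was 0.02, and 0 of them had an unadjusted limma p under 0.05 in either direction. Chil3 has near copies in the genome. Chil4, with 94.3% identity over 1540 aligned bases, was at no more than 0.0214 FPKM in any spleen, and Gm6522, with 94.96% over 1171 bases, at no more than 0.0567 FPKM. The more distant Chia1, with 76.3% over 1199 bases, was at no more than 0.183 FPKM, and Chil5, with 77.9% over 1156 bases, was at 1.04 to 2.27 FPKM. Near copies of part of Cd177, BC049730 and Gm4763, were listed at 0 in every spleen. How the authors' counting divided reads between such copies was not given in the sources used here.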

How the data were processed

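Spleen RNA of 5 DUSP6 KO and 5 WT mice was sequenced (400 ng of RNA per mouse). The authors deposited FPKM values per gene. They aligned reads with Hisat2 and counted them with featureCounts (version 1.5.0-p3 per the submitters' processing notes), and used DESeq2 for their own comparison, which was not repeated here. The processing notes name a human genome build, but the gene identifiers are mouse and 98.3% of the genes had the position of the GENCODE M21 annotation (GRCm38), as did all 9 members. The strandedness of counting was not given in the sources used here. The FPKM steps corresponded to whole reads in 100% of values (tolerance 0.001 read), so reads per library could be recovered. The scaling totals behind the FPKM values were 0.949 to 1.12 times the sum of recovered reads.

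Genes that averaged 0.1 FPKM or more were tested with limma (version 3.58.1, R 4.3.3; lmFit and eBayes with trend, two-sided) on log2(FPKM + 0.1), with all 10 spleens and no covariate, and p was adjusted by Benjamini-Hochberg over all 21296 genes. On this scale a fold change of a gene near the pseudocount comes out too small. Single members also had a two-sided exact permutation test of 5 against 5, whose smallest possible p is 0.0079. Correlations used 100000 permutations (scipy 1.17.1). The limma step was run on simulated counts in which genes varied independently, with the same spread setting for every gene. The members varied together across spleens, so that run does not give the power or error rate for them. The labels do not say how the 10 samples were prepared beyond 1 mouse each. The limma p-values set a difference against the spread between these mice, with the variance of each gene moderated across genes. No pair of libraries of a group agreed within sampling noise (chi-square per gene 14.7 to 169 over 20 pairs).

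The members and lists were chosen with earlier results of these data known. Genes named were the members, Dusp6, all regulators, partners and inhibitors that passed the filter, up to 2 genes of each other list with the lowest p, and the 10 genes most like the members. Genes outside this rule are said to be chosen after their values were seen. The alternatives changed the pseudocount (0.01 and 1) or the filter (a mean of 1 FPKM, or none), or used other variance priors, array weights, other scalings, limma voom on recovered reads, each library left out in turn and, added after seeing the data, WT 65 and WT 67 left out together.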

Additional observations from a re-analysis of the deposited data

Results flagged for a closer look

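In 60 groups of 5 values examined, 3 held a sample far from the other 4, by a gap of more than 0.71 of the range of the group (Dixon's 95% critical value), and chance gives about 1 in 20. Chil3 in DUSP6 KO 73 was the highest of its group, with a gap of 0.730 of the range on the log2 scale, and its level there was 71.9 FPKM against 31.6 to 39.5 FPKM in the other 4. The mean log2 level of the granule gene regulators in DUSP6 KO 01 was the lowest of its group, with a gap of 0.745 of the range. The number of reads in WT 67 was the highest of the WT libraries, with a gap of 0.738 of the range, and this is also the library with the most pancreas transcripts.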

How the results depend on the processing

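No paired analysis was possible because the groups share only 1 mouse number, 73, which marks a different mouse in each. The 9 members gave 198 log2 fold changes under 22 alternatives. All 198 were negative, from −1.75 to −0.19, and the limma adjusted p reached 0.05 in 0 of them, the lowest being 0.34 for Chil3 with array weights. Leave-one-out fits gave 2 to 8 members that were lower in DUSP6 KO before adjustment (p under 0.05), against 7 with all libraries, and it was 6 to 8 under the other 12 alternatives. The libraries behind these counts are named above, and leaving one out also leaves fewer samples. The median of the members lay between −1.35 and −0.73 with a library left out and between −1.62 and −1.02 otherwise, the lowest with WT 65 and WT 67 left out. The number of genes called over all genes was 15, lay between 10 and 34 with a library left out, and was 34 without DUSP6 KO 21. The cause was not tested. It lay between 11 and 22 otherwise. With 5 spleens a group and standard errors of 0.24 to 0.52 on the log2 scale, differences of the size seen here did not pass adjustment over 21296 genes. Library depth left 44 reads or more for each member in every spleen.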
